A study of Mus musculus with 4 samples.

Results

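Notch receptors, their ligands and the Hes and Hey genes they act through were followed in TBV2 cells, a mouse embryonic stem cell (ESC) line, after exposure to MS-275, an inhibitor of class I histone deacetylases. The 10 genes are the receptors Notch1 and Notch3, the ligands Dll1, Dll3 and Jag1, and the effectors Hes1, Hes5, Hey1, Hey2 and Heyl. They were chosen by symbol for their place in the pathway, out of 28250 genes listed in the expression tables, and each symbol was found once. The choice was made with earlier results of these data known. From these RNA-seq data the paper names Hey1 and Hey2 among genes of its most enriched terms. RNA-seq covered 2 libraries of solvent-treated cells and 2 libraries of cells treated with 5 µM MS-275, all collected at 24 h. All 4 came from the same feeder-dependent line kept in LIF, without any genetic change named in the labels. The paper does not say whether these 4 cultures held feeder cells. No label says whether the replicates came from separate cultures, so the p-values measure only the spread between these libraries, which may be technical. The sources differ on the vehicle, which is therefore called solvent.

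Notch receptors are single-pass membrane proteins that bind Delta-like and Jagged ligands on a neighbouring cell. Ligand binding exposes the receptor to cleavage by ADAM proteases and then by gamma-secretase, and the freed intracellular domain enters the nucleus, where it joins Rbpj and a Mastermind protein on DNA. In the absence of that domain Rbpj recruits corepressors, some of which carry histone deacetylases. The best-known targets are the Hes and Hey genes, which encode basic helix-loop-helix repressors. In ESC cultures the pathway is best known for favouring neural commitment when differentiation begins.

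The sequences just upstream of 4 effectors are shown because these genes share a role and behaved differently, with Hey1, Hey2 and Heyl higher after MS-275 in each pair of replicates and Hes1 higher in 1 pair and lower in the other. Each is the 250 bases before the start of a GENCODE M1 protein-coding transcript on mm9, written 5′ to 3′ on the strand of the gene. They are chr16:30065176-30065425 on the plus strand for Hes1, chr3:8667040-8667289 on the minus strand for Hey1, chr10:30562608-30562857 on the minus strand for Hey2 and chr4:122910549-122910798 on the plus strand for Heyl. Capitals mark matches on either strand to GTGGGAA, the core bound by Rbpj, or to CACGNG, a sequence bound by Hes and Hey proteins.

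Hes1: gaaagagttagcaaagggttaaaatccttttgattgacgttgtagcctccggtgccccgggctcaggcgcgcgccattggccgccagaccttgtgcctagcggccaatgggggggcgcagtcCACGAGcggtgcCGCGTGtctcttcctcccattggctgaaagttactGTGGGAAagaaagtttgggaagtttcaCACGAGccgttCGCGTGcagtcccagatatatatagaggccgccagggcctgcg

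Hey1: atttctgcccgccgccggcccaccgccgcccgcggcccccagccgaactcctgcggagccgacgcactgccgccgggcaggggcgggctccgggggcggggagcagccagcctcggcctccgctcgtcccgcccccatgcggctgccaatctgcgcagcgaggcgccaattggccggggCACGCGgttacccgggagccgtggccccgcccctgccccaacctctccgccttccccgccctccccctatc

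Hey2: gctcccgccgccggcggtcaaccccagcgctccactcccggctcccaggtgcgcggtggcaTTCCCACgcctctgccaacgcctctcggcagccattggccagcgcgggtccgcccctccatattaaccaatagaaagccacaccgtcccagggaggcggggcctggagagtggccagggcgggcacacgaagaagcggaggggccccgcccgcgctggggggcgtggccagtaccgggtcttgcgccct

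Heyl: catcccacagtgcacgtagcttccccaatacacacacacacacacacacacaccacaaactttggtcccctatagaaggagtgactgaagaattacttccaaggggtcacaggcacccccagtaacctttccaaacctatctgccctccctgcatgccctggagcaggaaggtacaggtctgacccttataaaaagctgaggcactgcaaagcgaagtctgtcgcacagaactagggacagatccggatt

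Windows of 300 bases, from 250 before to 50 after the start, were searched for 22238 genes. GTGGGAA was present in 5.91% of these windows and in those of 4 of the 10 genes, Hes1, Hes5, Hey1 and Hey2. In Hes1 its match began 81 bases before the start, and in Hey2 1 of 2 matches began 189 bases before it. The other Hey2 match and the Hey1 match lay in the 50 bases after the start, which are not shown. CACGNG was present in 31.1% of all windows and in 6 of the 10, with 4 matches in Hes1, 2 in Jag1 and 1 each in Notch3, Dll3, Hey1 and Heyl. The Hey1 match began 71 bases before the start, and the Heyl match lay after it. GGGCGG, the GC box, was found in 44.8% of windows and in 6 of the 10. The ratio of observed to predicted CpG had a median of 0.550 over all windows. It was 0.230 for Heyl, the lowest of the 10 genes, against 0.838 for Hey1, 0.784 for Hey2, 0.808 for Hes1 and 1.04 for Hes5. Heyl thus had the window poorest in CpG and no Rbpj core, while Hey1 and Hey2 had both CpG-rich windows and a core. A match to these letters is a description of the sequence and not a measured binding site.

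The values analysed are the normalized expression values the authors deposited, a signal per gene made with Genomatix and not a read count. A level per exon length computed from the deposited alignments, given below, differed from the value by a factor that is not the same for each gene, so both are given where levels of different genes stand side by side. Fold changes are differences of log2(value + 0.005), which understates the change of the lowest genes. They were tested with limma over the 20336 genes at 0.001 or more in at least 2 libraries, with Benjamini-Hochberg adjustment over all of them. The test is given without and with a block for the replicate number, which pairs the libraries. The fit without the block was set as the main one, since the paper states no pairing, and the block was an alternative. The block leaves each gene few residual degrees of freedom, so its p-values lean heavily on variance shared across genes. With 2 libraries against 2, an exact permutation test of a single gene cannot go below p = 0.333.

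In the main fit, without the block, none of the 10 passed in either direction by limma at an adjusted p under 0.05. With the replicate block, the effectors Hey1, Hey2 and Heyl and the ligands Dll1 and Dll3 were called higher in MS-275, and no member lower. Their log2 fold changes ran from 1.26 to 1.93. Notch1, Notch3, Jag1, Hes1 and Hes5 did not pass in either fit. Taking the unadjusted p at 0.05 in the fit without the block, 4 were higher (Dll1, Hey1, Hey2 and Heyl) and 0 lower. Of all tested genes, 14.6% were higher and 2.77% lower by that measure. The adjusted fit without the block called 0.00492% of all genes higher, which is 1 gene, and 0.00% lower.

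With the block the 5 of 10 members called higher stand beside 21.0% of all tested genes, and the 0 called lower beside 6.46%. These shares are no independent comparison, since the members were chosen with earlier results of these data known. Median-ratio scaling with the block again called 5 members higher, beside 16.7% of all genes (11.7% lower), and quantile normalization with the block called 5, beside 14.4% (14.6% lower). Limma-voom on distinct alignment positions, where repeated alignments count once, called 5 of 9 tested members higher without the block, beside 14.8% of the genes it tested (4.94% lower), and 6 with it, beside 30.0% (13.9% lower). Of all calls with the block, 76.5% were higher, against 58.9% with median-ratio scaling and 49.8% with quantile normalization. The median log2 fold change of all tested genes was 0.20, and 0.03 and -0.03 after those scalings. The median over the 10 members was 0.86, and 0.65 after median-ratio scaling. The changes of Notch3 and Hes1, below, are therefore close to the shift of the whole table. Heyl passed the filter on low values through its MS-275 libraries alone and so had to differ. Of the other 9 members, 4 were called higher with the block.

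**Figure D1:**
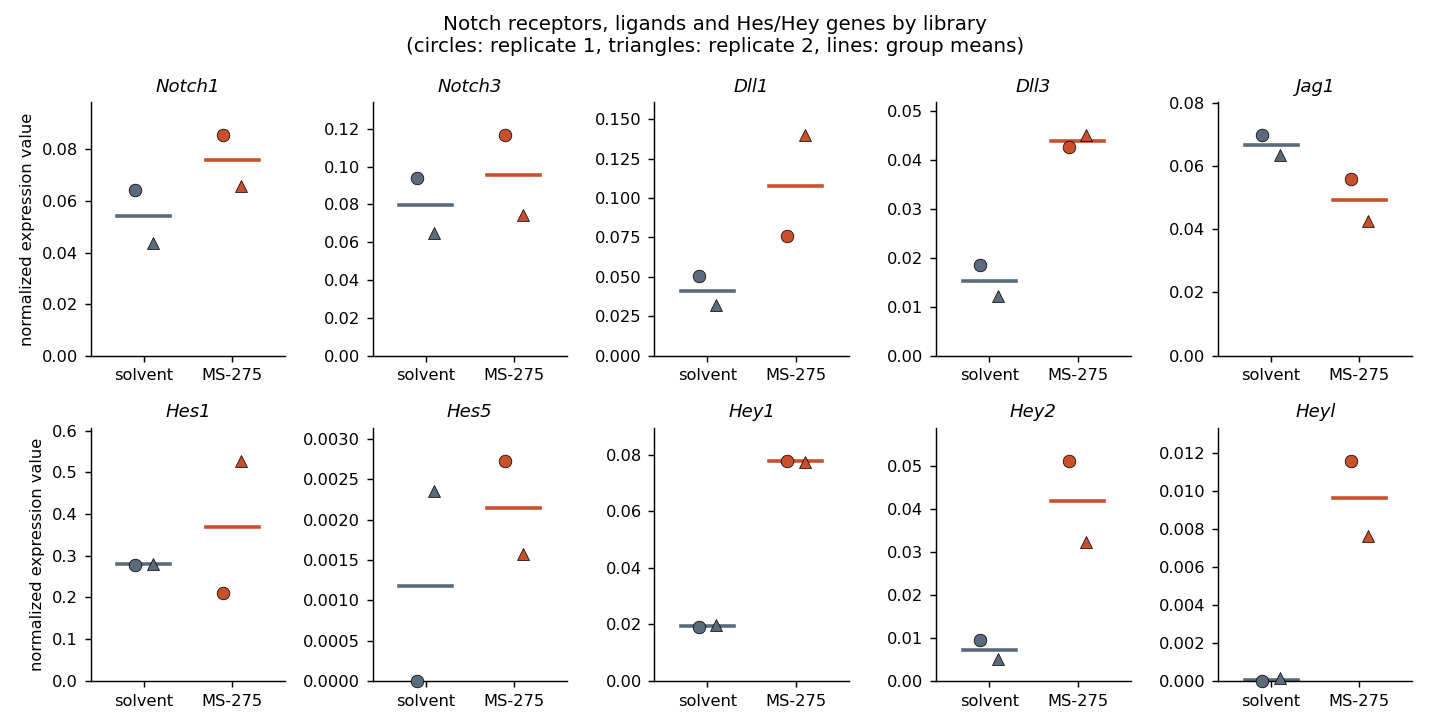
Deposited normalized expression value (vertical axis, starting at 0) of each of the 10 genes in the 4 libraries, with solvent on the left and MS-275 on the right of each panel. Circles are replicate 1, triangles replicate 2 and lines the group means of 2 libraries; the groups are apart, with MS-275 above, for Notch1, Dll1, Dll3, Hey1, Hey2 and Heyl, apart with MS-275 below for Jag1, and overlap for Notch3, Hes1 and Hes5.

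Hey1 encodes a Hey-family repressor and lies on mm9 chromosome 3 from 8663362 to 8667039 on the minus strand, in 5 exons. Its value was 0.0190 and 0.0199 in the solvent libraries (replicates 1 and 2) and 0.0778 and 0.0775 in the MS-275 libraries. The 2 libraries of each group lay almost on top of each other, and the groups were far apart. The log2 fold change was 1.76 with a standard error of 0.55 and an adjusted p of 0.138 in limma without the block, and with a standard error of 0.28 and an adjusted p of 0.000291 with it. Within the pairs it was 1.78 and 1.73, so the replicates gave the same change. This placed Hey1 at the 96.3 percentile of the fold changes of all tested genes.

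Hey2, which acts with Hey1 in the developing heart and vessels, lies on chromosome 10 from 30552165 to 30562607 on the minus strand, in 5 exons. It stood at 0.00946 and 0.00502 with solvent and at 0.0513 and 0.0324 with MS-275. The replicate 1 library was the higher of its group in both conditions, and the groups did not overlap. Its log2 fold change was 1.93 with a standard error of 0.31 and an adjusted p of 0.000288 with the block. Without the block the adjusted p was 0.151 and the standard error 0.63. The pairs gave 1.96 and 1.90.

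Heyl, the third Hey gene, lies on chromosome 4 from 122910799 to 122927118 on the plus strand, in 5 exons. It was listed at 0 and 0.00014 in the solvent libraries and at 0.0116 and 0.00762 in the MS-275 libraries. Heyl was thus near the floor with solvent and measured in both MS-275 libraries. Its fold change on the log2(value + 0.005) scale was 1.51 with a standard error of 0.24 and an adjusted p of 0.000326 with the block, and an adjusted p of 0.0592 without it. That size depends on the pseudocount: it lay below the 1.93 of Hey2 here, but at a pseudocount of 0.001 it was 3.29 against 2.40 for Hey2, and on distinct positions without the block 5.71 against 2.32. Counted on the alignments, its exons held 1 distinct position in the 2 solvent libraries together and 86 in the 2 MS-275 libraries. The ratio of these sums, after scaling to the distinct exonic positions of each group, was 89.55, with an exact 95% interval from 15.65 to 3578. This interval, like the others below, covers counting error only and no difference between replicates.

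Hes1 encodes a repressor that oscillates in several progenitor cells and is a direct target of Notch in many tissues. It lies on chromosome 16 from 30064470 to 30067882 on the plus strand, in 4 exons. Its value was 0.277 and 0.281 with solvent, and 0.212 and 0.528 with MS-275. The solvent libraries lay between the MS-275 libraries, of which 1 was below and 1 above both. The pairs moved in opposite directions, with log2 changes of -0.38 and 0.90. The mean change of 0.26 did not pass (standard error 0.28, adjusted p = 0.530 with the block). It turned to -0.39 without MS-275 replicate 2. On distinct positions it was -0.01 without the block and 0.04 with it. On all alignments, which join sets with and without repeated positions, it was 0.37 and 0.33. The alignments behind a value are taken here from the set deposited with the other replicate, for reasons given below. Those behind MS-275 replicate 2 numbered 1600, at 453 distinct positions, against 349 alignments at 349 positions behind replicate 1. The latter set, deposited with replicate 2, holds no repeated position for any gene, so its equal counts are not particular to Hes1. For Hes1 the sums of distinct positions gave a ratio of 1.01 (95% interval 0.920 to 1.12).

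Hes5, a Notch target of neural progenitors, lies on chromosome 4 from 154335032 to 154336480 on the plus strand, in 3 exons, and overlaps a gene on the opposite strand. It was listed at 0 and 0.00235 with solvent and at 0.00273 and 0.00157 with MS-275. These values rested on 0, 6, 2 and 5 alignments, counted in the set of the other replicate, and the groups overlapped. The log2 fold change of 0.23 did not pass (standard error 0.23, adjusted p = 0.490 with the block), and it was -0.16 after quantile normalization. A ratio of distinct positions of 1.46 had a 95% interval from 0.398 to 5.83, so a change was not detectable at this depth.

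Among the effectors, the Hey genes passed with the block, and Hes1 and Hes5 did not. Heyl had to differ, having passed the filter on low values through its MS-275 libraries alone, and Hes5 was not resolved at this depth. The contrast therefore rests on Hey1 and Hey2 against Hes1. Whether the Hey changes differ from those of Hes1 and Hes5 was not tested.

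Dll1, a ligand that activates receptors on neighbouring cells, lies on chromosome 17 from 15504318 to 15513836 on the minus strand, in 11 exons. It was at 0.0504 and 0.0318 with solvent and at 0.0756 and 0.140 with MS-275. Both MS-275 values were above both solvent values, but replicate 2 moved more. Its log2 fold change was 1.26 with a standard error of 0.52 and an adjusted p of 0.245 without the block, and with a standard error of 0.31 and an adjusted p of 0.00657 with it. The pairs gave 0.54 and 1.98, and without MS-275 replicate 2 the change was 0.84. The antisense gene A930024N18Rik overlaps Dll1, and the counting used no strand, so reads of these genes cannot be told apart where they overlap. On exon bases that belong to Dll1 alone, the distinct positions gave a ratio of 2.38 (95% interval 2.03 to 2.79).

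Dll3, a divergent Delta-like protein known for inhibiting Notch within the cell that makes it, lies on chromosome 7 from 29076673 to 29087257 on the minus strand, in 9 exons. It was at 0.0184 and 0.0122 with solvent and at 0.0427 and 0.0451 with MS-275. The MS-275 libraries agreed closely and both lay above the solvent libraries. The log2 fold change was 1.28 with a standard error of 0.61 and an adjusted p of 0.329 without the block, and with a standard error of 0.31 and an adjusted p of 0.00566 with it. Its pairs gave 1.03 and 1.54. The values rested on few alignments, 26 and 30 with solvent and 71 and 81 with MS-275, counted in the set of the other replicate. The ratio of distinct positions was 2.42 (95% interval 1.74 to 3.40).

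Jag1, the Jagged ligand of the set, lies on chromosome 2 from 136907192 to 136942380 on the minus strand, in 26 exons. It was the only member with both MS-275 values below both solvent values, at 0.0561 and 0.0426 against 0.0698 and 0.0637. The log2 fold change of -0.41 did not pass with the block (standard error 0.26, adjusted p = 0.259) or without it (standard error 0.49, adjusted p = 0.790). In the sums of distinct positions its ratio was 0.767 (95% interval 0.678 to 0.868). Both Delta-like ligands were thus higher with MS-275 while Jag1 had the opposite sign, and the difference between them was not tested.

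Notch1 lies on chromosome 2 from 26313423 to 26372183 on the minus strand, in 34 exons, and overlaps 0610009E02Rik and Gm13568 on the opposite strand. It was at 0.0643 and 0.0438 with solvent and at 0.0855 and 0.0660 with MS-275. The groups did not overlap, but the highest solvent value and the lowest MS-275 value nearly met. The log2 fold change of 0.46 did not pass with the block (standard error 0.25, adjusted p = 0.189) or without it (adjusted p = 0.745). It passed in limma-voom on distinct positions with the block (adjusted p = 0.0315), the sixth member called there. The ratio of its distinct positions was 1.37 (95% interval 1.24 to 1.52).

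Notch3 lies on chromosome 17 from 32257765 to 32303825 on the minus strand, in 33 exons, and overlaps Gm17276 on the opposite strand. Its value was 0.0941 and 0.0650 with solvent and 0.117 and 0.0746 with MS-275. The replicates differed more within each group than the groups did from each other. Its log2 fold change of 0.24 did not pass (standard error 0.24, adjusted p = 0.485 with the block) and was close to the median of all genes. The change was -0.01 without solvent replicate 2 and -0.07 without MS-275 replicate 1. The distinct positions gave a ratio of 1.11 (95% interval 1.04 to 1.20).

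**Figure D2:**
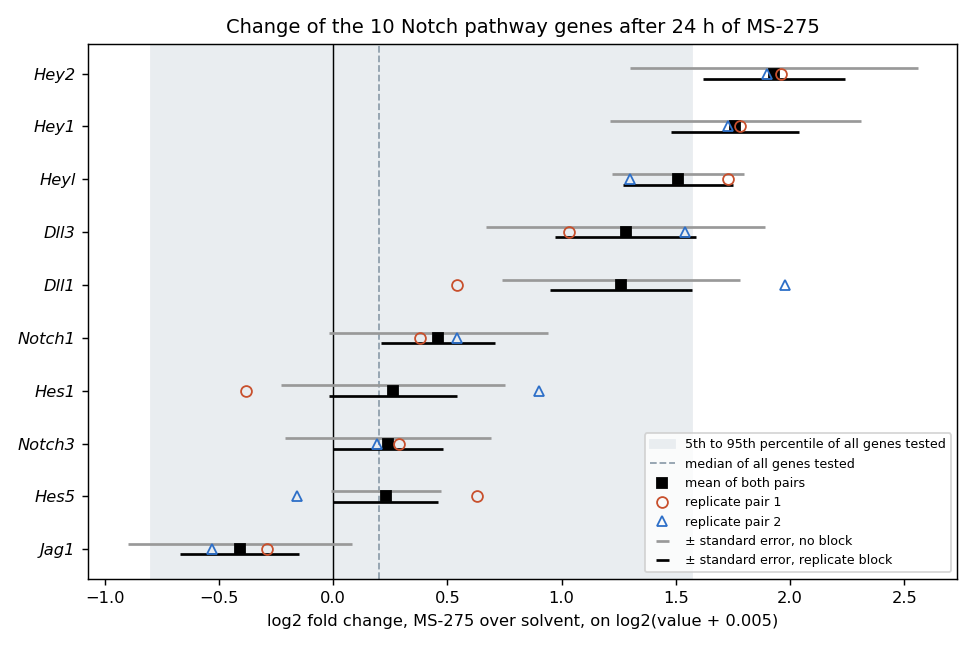
Log2 fold change (horizontal axis, MS-275 over solvent on log2(value + 0.005)) of each gene, as the mean of both pairs (squares) and within replicate pair 1 (circles) and pair 2 (triangles). Grey and black bars are standard errors without and with the replicate block, the dashed line is the median of all tested genes (0.20) and the shaded band their 5th to 95th percentile (-0.80 to 1.57); Hey1 and Hey2 lie above the band, and the pairs of Hes1 and of Hes5 fall on opposite sides of 0.

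Counting the genes whose groups do not overlap gave 6 of 10 members with both MS-275 values above both solvent values, beside 32.3% of all tested genes, and 1 of 10 below, beside 12.0%. The 6 were the 5 called genes and Notch1. Heyl had to be among them, since it passed the filter on low values through its MS-275 libraries alone.

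On the scale of the deposited values, the order of the mean levels with solvent was Hes1 at 0.279, then Notch3 at 0.0796, Jag1 at 0.0668, Notch1 at 0.0541 and Dll1 at 0.0411, then Hey1 at 0.0195, Dll3 at 0.0153, Hey2 at 0.00724, Hes5 at 0.00118 and Heyl at 0.00007. Each of the neighbours from Notch3 to Dll1 overlapped in their libraries, as did Hes5 and Heyl, and the others were apart. With MS-275 Hes1 was still first at 0.370. Behind it Dll1 at 0.108, Notch3 at 0.0956, Hey1 at 0.0777 and Notch1 at 0.0757 overlapped from neighbour to neighbour, followed by Jag1 at 0.0493, Dll3 at 0.0439 and Hey2 at 0.0418, which also overlapped. Heyl at 0.00960 and Hes5 at 0.00215 came last.

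The order changed on the scale of alignments per exon length and per library, multiplied by 10000000. There Notch1 stood at 0.0151 and 0.0220 with solvent, a range that held Hey1 at 0.0190 and 0.0201 and lay below Dll1 at 0.0235 and 0.0293. With MS-275 Notch1 was at 0.0162 and 0.0385, below Hey1 at 0.0786 and 0.0799 and Dll1 at 0.0629 and 0.0759. The place of Notch1 among these genes thus depends on the scale. The alignment scale divides by the annotated exon bases counted for a gene, 12843 for Notch1, against 9488 in its transcript Notch1-001. For Hey1 both lengths were 2203 bases, and for Dll1 they were 3352 and 3581. How far these lengths move the place of Notch1 was not tested. On both scales Hes1 was the highest of the 10 genes in each condition, and Hey1 lay below Notch3 with solvent and overlapped it with MS-275. Notch3 stood at 0.0689 and 0.0966 with solvent and at 0.0788 and 0.120 with MS-275 on the alignment scale.

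The alignments show where on each gene the reads lay. Hey1 had distinct positions in 18 of 20 equal bins along its exons with solvent and in 20 of 20 with MS-275, and Hey2 had the same counts. Heyl was covered in 16 of 20 bins with MS-275 and in 1 with solvent. For Hey1, 68.3% of the MS-275 positions lay in the 3′ part beyond the middle of the exons, against 71.9% with solvent. Reads of both conditions were thus spread along the transcripts of Hey1 and Hey2. Introns held 2.34% of the positions on Hey1 with MS-275 (exact 95% interval 1.13 to 4.26) and 2.42% with solvent (0.502 to 6.91), so no shift was detectable. Dll3 had 24.1% in introns with MS-275 (17.7 to 31.4) and 36.9% with solvent (26.6 to 48.1), and these intervals overlap.

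**Figure D3:**
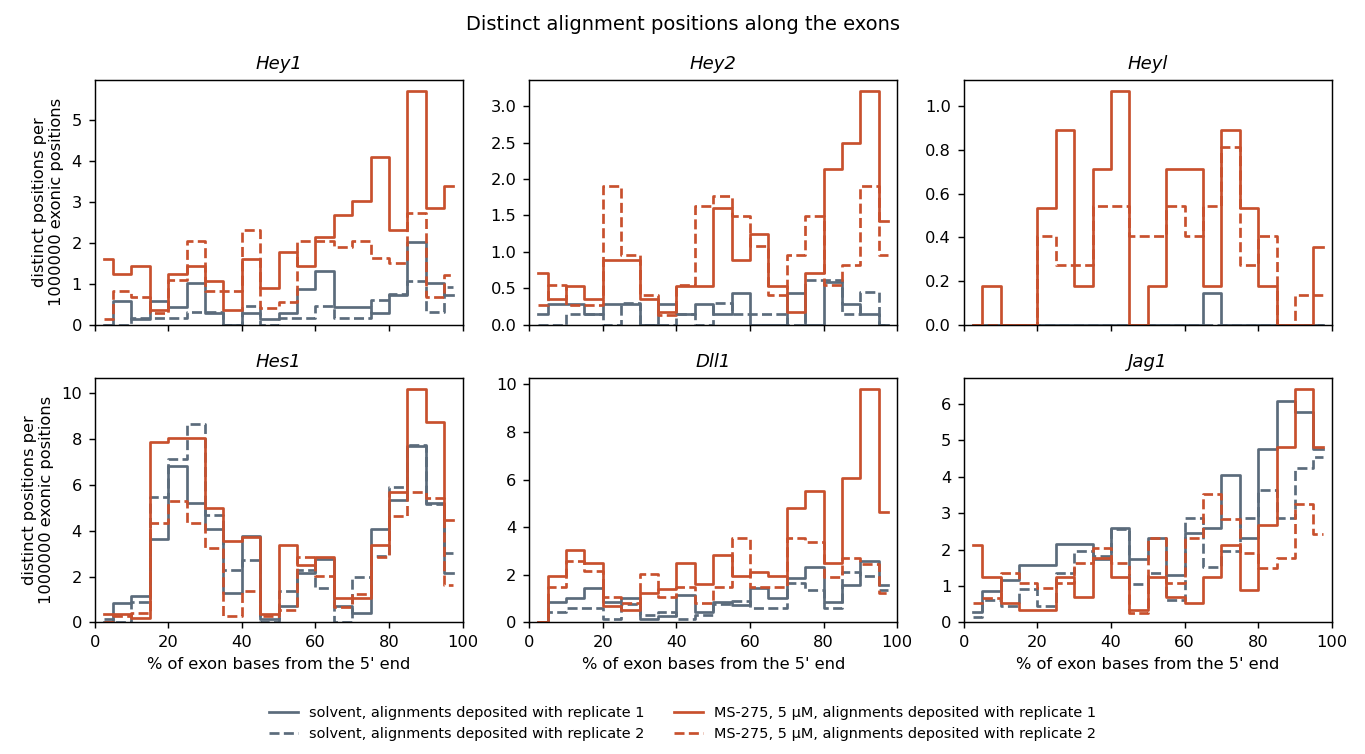
Distinct alignment positions per 1000000 exonic positions (vertical axes, starting at 0) along the joined exons, in bins of equal length from the 5′ end (horizontal axis, % of exon bases), with solvent and MS-275 lines for the alignments deposited with each replicate. The MS-275 lines of Hey1, Hey2 and Heyl lie above the solvent lines over most of the exons and not in a single bin.

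Of 8 further receptors, ligands and Hes genes, 4 rose and 0 fell with the block, beside 21.0% and 6.46% of all tested genes. Without the block 0 passed. The 4 were Hes6, Hes7, Notch2 and Dll4. Median-ratio scaling with the block called 3 of the 8 higher, beside 16.7% of all tested genes. Quantile normalization with the block called 2, beside 14.4%. Dll4 passed the filter on low values through its MS-275 libraries alone, and Hes7 needed an MS-275 library to pass it, so these genes, like Heyl, were tested because they were higher there. Hes6, a Hes protein that counters Hes1, was at 0.112 and 0.0907 with solvent and at 0.202 and 0.182 with MS-275, a log2 change of 0.90 (adjusted p = 0.00664 with the block). Hes7, the oscillating repressor of the segmentation clock, was at 0 and 0.00133 with solvent and at 0.00857 and 0.0312 with MS-275, a change of 1.98 (adjusted p = 0.000184 with the block). Its pairs gave 1.44 and 2.51, and without MS-275 replicate 2 the change was 1.27. Its distinct positions numbered 3 with solvent and 58 with MS-275, a ratio of 20.1 (95% interval 6.56 to 100.5). The ligand Dll4 was at 0 and 0.00063 with solvent and at 0.00733 and 0.00348 with MS-275, a change of 0.95 (adjusted p = 0.00808 with the block, 0.0587 after quantile normalization with the block). Its distinct positions numbered 4 and 49, a ratio of 12.8 (95% interval 4.68 to 48.7).

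Notch2 was at 0.0704 and 0.0359 with solvent and at 0.147 and 0.0545 with MS-275. Its groups overlapped. The log2 change of 0.78 passed with the block (adjusted p = 0.0328) but not after median-ratio scaling with the block (adjusted p = 0.118) or after quantile normalization with the block (adjusted p = 0.0795), and it was 0.10 without MS-275 replicate 1, 1.46 without MS-275 replicate 2, 1.22 without solvent replicate 1 and 0.34 without solvent replicate 2. Notch4 (-0.28), Jag2 (0.32), Hes2 (0.58) and Hes3 (0.21) did not pass. Among the Hes genes, Hes6 and Hes7 thus passed with the block, and Hes1, Hes2, Hes3 and Hes5 did not.

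The other pathway genes were taken from lists by role, and 65 of 67 symbols were listed. With the block 16 rose and 9 fell of the 65, beside the 21.0% and 6.46% of all genes given above. After median-ratio scaling with the block 13 rose and 15 fell, beside 16.7% and 11.7%. Without the block 0 passed by limma in either direction. By the unadjusted p 12 were higher and 5 lower, beside 14.6% and 2.77% of all tested genes. Limma-voom on distinct positions without the block called 12 higher and 5 lower of 63 tested, beside 14.8% and 4.94%. Their median log2 change was 0.21, next to 0.20 for all genes. The same shares, 21.0% higher and 6.46% lower, stand beside the counts with the block in each role list below.

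Of 9 genes that glycosylate the receptor or handle the ligand, 3 rose and 1 fell with the block. Lfng, the Fringe enzyme that extends sugars on the receptor, was at 0.0197 and 0.0161 with solvent and at 0.0555 and 0.0856 with MS-275, a log2 change of 1.70 (adjusted p = 0.000706 with the block). Poglut1, which adds glucose to the receptor, was at 0.389 and 0.235 with solvent and at 0.170 and 0.0547 with MS-275, a change of -1.59 (adjusted p = 0.000196 with the block), and of -0.81 without MS-275 replicate 2. Both genes had groups that did not overlap.

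Among 10 genes of receptor proteolysis 3 rose and 0 fell with the block, namely the proteases Adam10 (0.73) and Adam17 (0.89) and the gamma-secretase subunit Aph1b (1.37, adjusted p = 0.00265). Aph1b was at 0.005 and 0.00349 with solvent and at 0.0197 and 0.0178 with MS-275. Adam10 did not pass after median-ratio scaling with the block (adjusted p = 0.116), and its change was 0.48 without MS-275 replicate 2. The subunit with the lowest change, Aph1a, was at 0.0358 and 0.0309 with solvent and at 0.0170 and 0.0193 with MS-275, a change of -0.73 that did not pass with the block (adjusted p = 0.0894). With the block it passed after median-ratio scaling (adjusted p = 0.0338) and quantile normalization (adjusted p = 0.00940), and it turned sign to 0.12 on distinct positions (adjusted p = 0.810) and 0.25 on all alignments (adjusted p = 0.649).

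The nuclear complex and its coactivators had 0 higher and 2 lower of 9 with the block. After median-ratio scaling with the block the counts were 0 and 5, beside 16.7% and 11.7% of all tested genes. Rbpj, the DNA-binding protein of the pathway, was at 0.337 and 0.275 with solvent and at 0.228 and 0.155 with MS-275, a log2 change of -0.68 (adjusted p = 0.0320 with the block), and of -0.41 without MS-275 replicate 2. Kat2b, an acetyltransferase, was at 0.168 and 0.119 with solvent and at 0.0866 and 0.0226 with MS-275, a change of -1.54 (adjusted p = 0.000928 with the block), which was -0.68 without MS-275 replicate 2 and -2.41 without MS-275 replicate 1. Snw1, an adaptor of the complex, had the highest change of the list, 0.46, which did not pass and was -0.51 without MS-275 replicate 2. The median of the list was -0.43, or -0.66 after median-ratio scaling.

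Corepressors gave 1 higher and 4 lower of 13 with the block. Tle6, a divergent Groucho-family protein, was at 0.0545 and 0.0284 with solvent and at 0.208 and 0.171 with MS-275, a log2 change of 2.12 (adjusted p = 2.1e-05 with the block). Its relative Tle3 was at 0.235 and 0.421 with solvent and at 0.121 and 0.107 with MS-275, a change of -1.43 (adjusted p = 0.000620 with the block). The other 3 that fell were Ncor1 (-0.82), which brings histone deacetylases to DNA-bound factors, Tle4 (-0.60) and Ctbp2 (-1.33). The groups of Ncor1 overlapped, and its change was -0.14 without MS-275 replicate 2 and -1.51 without MS-275 replicate 1. Ctbp2 was at -0.60 and -2.05 without the same libraries. Tle4 was near the threshold (adjusted p = 0.0499 with the block), did not pass on all alignments with the block (adjusted p = 0.0969), and was -0.35 when either MS-275 replicate 2 or solvent replicate 1 was left out, and -0.86 when either of the others was.

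For turnover and negative feedback, 1 of 11 rose and 2 fell with the block. Nrarp, a target of Notch that promotes loss of the receptor's intracellular domain, was at 0.0525 and 0.0268 with solvent and at 0.130 and 0.497 with MS-275. Its log2 change of 2.60 (adjusted p = 0.000282 with the block) came from pairs at 1.23 and 3.98, and was 1.65 without MS-275 replicate 2. Dtx3, a Deltex protein, was at 0.279 and 0.256 with solvent and at 0.132 and 0.115 with MS-275, a change of -1.09 (adjusted p = 0.00162 with the block). Dtx3l (-1.03) also fell.

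Of 6 non-canonical or additional ligands, 4 rose and 0 fell with the block, namely the Delta-like protein Dlk1 (1.59), the neuronal protein Dner (1.28), the adhesion protein Cntn1 (1.76) and Nov (2.39). Nov, a secreted matrix protein, was at 0.00821 and 0.00897 with solvent and at 0.0682 and 0.0646 with MS-275 (adjusted p = 4.1e-05 with the block). Dner did not pass after quantile normalization with the block (adjusted p = 0.0539). Jag2, which this list also holds, had the lowest change, 0.32, which did not pass.

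Markers of ESC were present in all 4 libraries, and the marker lists gave the following counts with the block, beside 21.0% of all tested genes higher and 6.46% lower. Of 8 pluripotency markers 0 rose and 2 fell with the block, and their summed value was 5.08 and 22.2 with solvent and 4.26 and 13.4 with MS-275, further apart between replicates than between groups. Of 10 fibroblast markers, which any feeder cells could supply, 6 rose and 0 fell, and none was at 0. Their sum was 0.445 and 0.579 with solvent and 0.800 and 1.08 with MS-275. Neural progenitor markers gave 4 higher and 1 lower of 8, with sums of 0.503 and 0.828 and then 0.588 and 1.05, and Neurog2 was at 0 in solvent replicate 1. Markers of mural and smooth muscle cells, in which Notch3 and Heyl are known to be expressed, gave 6 higher and 0 lower of 8, with sums of 0.217 and 0.129 and then 0.646 and 0.296, and none at 0. Endothelial markers gave 3 higher and 1 lower of the 7 tested, and Emcn was at 0 in all 4 libraries. Their sums were 0.631 and 0.611 and then 0.486 and 0.153. Most of each sum was Pecam1, at 0.529 and 0.567 with solvent and at 0.331 and 0.0962 with MS-275. Presomitic mesoderm markers, a list that holds Lfng, gave 2 higher and 0 lower of 7, with sums of 0.0830 and 0.0394 and then 0.148 and 0.139, and Msgn1 was at 0 in both MS-275 libraries. After quantile normalization with the block, fibroblast markers gave 4 higher and 2 lower, and mural and smooth muscle markers 3 and 1. Neural progenitor and presomitic mesoderm markers each gave 2 and 2, endothelial markers 1 and 2, and pluripotency markers 0 and 3. These counts stand beside 14.4% and 14.6% of all tested genes. The part of cells of these types in the changes of the Notch genes was not tested. In bulk RNA, more cells of a type and more RNA per cell cannot be told apart.

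The deposited alignments, 35 bases long, numbered from 9785619 to 23467935 per library. In the sets deposited with replicate 1 of each condition 53.2% and 54.4% of alignments repeated a position already taken, and in those deposited with replicate 2 none did. Within each condition the values of replicate 1 were closer to the alignments of replicate 2, and the reverse. The mitochondrial gene ND5 had values of 1.59 (solvent) and 1.41 (MS-275) in replicate 1 and was listed at 0 in replicate 2, as were ND6 and COX1, whereas mitochondrial alignments were present only in the sets deposited with replicate 2, where they numbered 13431 and 13889. COX2 went the other way at values near the floor, listed at 0 in replicate 1 and at 0.00074 and 0.00087 in replicate 2. Of the genes listed at 0, 97.5% to 98.4% had no alignment in the other replicate's set, against 82.3% to 88.7% in their own. For Hes1 in MS-275 replicate 2, with a value of 0.528, the level computed on the alignment scale was 0.393 from the other replicate's set and 0.157 from its own. With the sets exchanged, the value over the computed level lay between 0.943 and 1.07 for Notch3, Hey1 and Hey2, but ran from 2.22 to 4.08 for Notch1, from 1.89 to 3.2 for Dll3, from 1.42 to 1.86 for Jag1, from 1.2 to 1.84 for Dll1, from 1.31 to 1.35 for Hes1, from 1.44 to 1.68 for Heyl and from 0.584 to 1.39 for Hes5. For Hey1 the computed levels hardly differed between the sets. Such an exchange stays within a condition, so it does not touch the comparison of MS-275 with solvent. A replicate is numbered here as in the tables of values, and counts on alignments keep the number they were deposited with. The alignments said to lie behind the values of Hes1, Hes5 and Dll3 are the exception, being those of the other replicate's set.

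**Figure D4:**
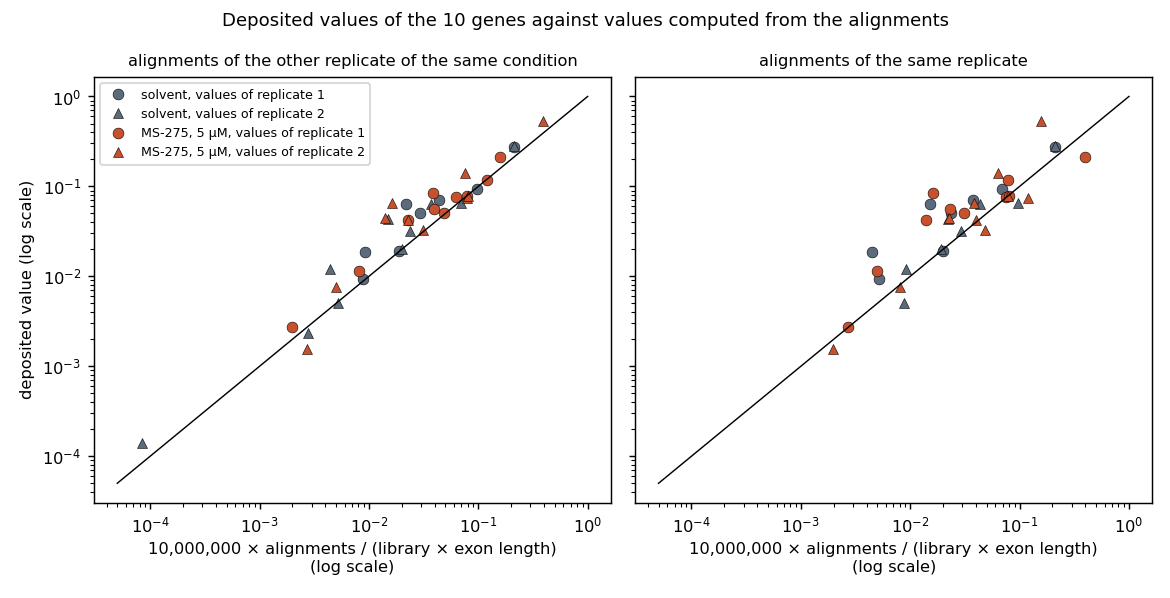
Deposited value of the 10 genes (vertical axis, log scale) against the value computed from the alignments as 10000000 times alignments over library total and exon length (horizontal axis, log scale), with the alignments of the other replicate on the left and of the same replicate on the right. Each point is a gene in a library, the line marks equality and genes at 0 on either axis are not drawn; over all genes the interquartile range of the log2 ratio of these quantities was 0.67 to 0.91 on the left and 1.07 to 1.33 on the right.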

How the data were processed

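RNA-seq values of 2 solvent and 2 MS-275 libraries (24 h, 5 µM) were analysed. Libraries titled as duplicates are replicate 2. The authors mapped the reads to mm9 and deposited a normalized expression signal per gene made with Genomatix. Its formula and handling of repeated reads, and the aligner, are not given in the sources used here. The authors also deposited alignments, shorter tables of the same values and tables of ratios between conditions. The last 2 kinds were not used.

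Signal values were tested in R 4.3.3 with limma 3.58.1 (lmFit, then eBayes with a trend, two-sided) on log2(value + 0.005), for genes at 0.001 or more in at least 2 libraries, with Benjamini-Hochberg adjustment and a threshold of 0.05. The fit with a block used the replicate number. These numbers pair the libraries because headers in the authors' tables name the replicate 1 libraries of solvent and MS-275 old. Deviations from group means had a correlation of 0.764 within pairs. In both conditions the replicates also differed in repeated and mitochondrial alignments. The correlation therefore cannot tell libraries made together from libraries processed alike. Alignments were counted by their midpoint, without strand, on exon bases that belong to 1 GENCODE M1 gene, and limma-voom was fitted to genes counted 10 times or more in 2 or more libraries. Promoter windows and coordinates are from GENCODE M1 on mm9, each window at the start of the gene's first protein-coding transcript by name. Python 3.11.15 with pandas 2.3.3, numpy 2.4.6, scipy 1.17.1 and matplotlib 3.10.9 was used. The fits were tested on simulated data.

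The members and lists were chosen with earlier results of these data known. Named were all members, the other family genes and, of each role list, the gene with the largest rise and the one with the largest fall in the fit without a block among genes with a mean value of at least 0.01. Other genes called in a role list were named after their values were seen. Alternatives were other pseudocounts, filters, scalings, counts on alignments, the block, and each library left out in turn.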

Additional observations from a re-analysis of the deposited data

How the results depend on the processing

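The replicate block decided most calls. Without it 0 members passed in either direction, 0 other pathway genes, and 1 gene higher and 0 lower of all genes. With the replicate block 5 members, 16 other pathway genes and 4277 of all genes were higher, and 9 other pathway genes and 1314 of all genes lower. No member was called lower under any alternative. With the block, median-ratio scaling gave 5, 13 and 3402 higher and 15 and 2370 lower (other pathway genes, then all genes). Quantile normalization with the block gave 5, 12 and 2936 higher and 15 and 2961 lower. A pseudocount of 0.001 with the block gave 5, 16 and 4216 higher and 8 and 1220 lower, and a pseudocount of 0.02 with the block 5, 16 and 3790 higher and 8 and 1158 lower. Without the block, these scalings and pseudocounts, the fit with no filter and the fit with no trend each called 0 of all genes higher. Keeping genes with a mean value of at least 0.01 gave 4 other pathway genes higher, and 466 higher and 65 lower of all genes. Limma-voom on distinct positions gave 5, 12 and 2509 higher and 5 and 838 lower, and with the block 6, 23 and 5089 higher and 14 and 2364 lower. On all alignments it gave 1, 3 and 428 higher and 20 of all genes lower, and with the block 5, 20 and 4523 higher and 10 and 1750 lower.

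Leaving out each library in turn gave 0 members, 0 to 2 other pathway genes higher, and 0 to 160 higher and 0 to 29 lower of all genes. Such a fit keeps 1 library in a group, which is assumed to vary like the other group, and the most calls came without solvent replicate 1. Of 194 member fold changes under an alternative, 145 kept their direction and their side of the threshold, 42 kept their direction and came past it, and 7 turned sign. The sign turned for Notch3 without solvent replicate 2 (-0.01) and without MS-275 replicate 1 (-0.07), for Hes1 without MS-275 replicate 2 (-0.39) and on distinct positions without the block (-0.01), and for Hes5 after quantile normalization with and without the block (-0.16) and without solvent replicate 1 (-0.04). Over the libraries left out, Notch3 ranged from -0.07 to 0.54, Hes1 from -0.39 to 0.90 and Hes5 from -0.04 to 0.51. The causes were not tested. With 2 libraries a group, genes near the floor such as Hes5 could not be resolved at this depth.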
